A study of Homo sapiens with 12 samples.

Results

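The 37 genes of the human mitochondrial chromosome were followed one by one in Huh7 cells, an established hepatocellular carcinoma line, with and without knockdown of FAM111B. They were taken as all rows of the deposited table whose gene name starts with MT-, which are 13 mRNAs, 2 rRNAs and 22 tRNAs among 60666 listed genes. RNA was sequenced from 3 control libraries (the groups are labelled NC and KD) and 3 libraries of cells carrying a lentiviral shRNA against FAM111B, all 6 in Huh7 cells grown in high-glucose medium, and the study selected its transduced cells with puromycin. The labels do not say whether the libraries of a group came from separate cultures, so the p-values measure only the spread between these libraries. The Hep3B libraries of the series were not analysed here.

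The mitochondrial chromosome is a small circle that is read from both strands into long RNAs, and tRNAs lying between most of the other genes mark where these RNAs are cut. Its mRNAs encode core subunits of the respiratory chain and of the ATP synthase, to which the nucleus adds the other subunits, and its rRNAs build the mitochondrial ribosome. Liver cells are rich in mitochondria. Most mitochondrial mRNAs carry a short poly(A) tail, whereas the MT-ND6 mRNA lacks one.

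All 37 genes matched GENCODE v29 (GRCh38) by Ensembl identifier, and the submitters' processing notes name hg38. In that annotation 12 of the 13 mRNAs, both rRNAs and 14 tRNAs lie on the plus strand and belong to the heavy-strand transcript. MT-ND6 and 8 tRNAs lie on the minus strand. The genes have no introns. MT-ATP6 and MT-CO3 share 1 nt in the annotation (chrM:9207), and 2 further pairs of mRNAs share more bases on the same RNA. MT-ATP8 (chrM:8366-8572, plus strand, 207 nt) overlaps MT-ATP6 (chrM:8527-9207, 681 nt) by 46 nt, and MT-ND4L (chrM:10470-10766, plus strand, 297 nt) overlaps MT-ND4 (chrM:10760-12137, 1378 nt) by 7 nt. Both pairs are shown, as GENCODE v29 gives them and 5′ to 3′, because the members of each pair differed most in their values, and the capitals mark the shared bases.
MT-ATP8, whole: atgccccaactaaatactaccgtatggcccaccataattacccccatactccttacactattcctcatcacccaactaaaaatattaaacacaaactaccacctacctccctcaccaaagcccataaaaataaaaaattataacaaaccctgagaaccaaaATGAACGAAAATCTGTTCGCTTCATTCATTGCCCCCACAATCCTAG
MT-ATP6, first 90 bases: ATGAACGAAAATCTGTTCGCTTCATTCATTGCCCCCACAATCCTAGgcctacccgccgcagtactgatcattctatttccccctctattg
MT-ND4L, whole: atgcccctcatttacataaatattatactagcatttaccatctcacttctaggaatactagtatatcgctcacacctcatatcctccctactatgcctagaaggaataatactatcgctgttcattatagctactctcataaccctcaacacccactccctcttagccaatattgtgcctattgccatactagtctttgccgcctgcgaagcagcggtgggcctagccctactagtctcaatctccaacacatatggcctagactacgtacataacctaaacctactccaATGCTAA
MT-ND4, first 60 bases: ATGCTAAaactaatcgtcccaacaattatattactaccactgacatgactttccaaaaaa

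MT-ND5 (chrM:12337-14148, plus strand, 1812 nt) and MT-ND6 (chrM:14149-14673, minus strand, 525 nt) meet end to end with 0 nt between them, on opposite strands. Their last 60 bases are shown, each 5′ to 3′ on its own strand, because MT-ND5 had the largest fall outside the overlapping pairs and MT-ND6 was the gene with the highest log2 fold change. Capitals mark the last codon.
MT-ND5: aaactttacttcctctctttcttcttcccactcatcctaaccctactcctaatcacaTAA
MT-ND6: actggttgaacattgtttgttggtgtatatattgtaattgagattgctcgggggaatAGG

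The authors deposited TPM, which correct the reads of each gene for its length and set every library to a common total. Levels of different genes are thus given per length, and the sequencing depth is unknown. For MT-ATP8 and MT-ND4L, shorter than the 300 bp to which the labels say the cDNA was selected, the correction may be poor. The listed genes summed to between 978634 and 997094 TPM per library. FAM111B itself, the targeted gene, stood at 7.84, 8.29 and 7.99 TPM in the control libraries and at 0.96, 1.13 and 0.84 TPM in the shFAM111B libraries (here and below in the order of replicates 1 to 3). All 10 hepatocyte markers were present at 113 TPM or more in every library, among them albumin and AFP, whereas summed markers reached at most 16.5 TPM for fibroblasts (5 genes), 26.1 TPM for leukocytes (5 genes, mostly CD68) and 3.58 TPM for endothelial cells (4 genes). The median of all 14394 tested genes fell by 0.36 on the log2 scale with the TPM as deposited, and other scalings move that median to between -0.47 and 0.03. Fold changes below come from limma on log2(TPM + 1), with p-values adjusted over all tested genes by the Benjamini-Hochberg method, and were also computed under 4 other scalings of the libraries. A gene was called when it changed by at least 2-fold at P under 0.05, the thresholds of the study. The submitters' processing notes name DESeq2, whereas limma on TPM was used here. The calls below are therefore not those of the study, and their numbers should not be set against its numbers.

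The 13 mRNAs made up 19.5%, 19.5% and 19.0% of all TPM in the control libraries and 7.39%, 7.61% and 7.01% in the shFAM111B libraries. MT-ATP8 and MT-ND4L alone held 40.1% to 41.0% of that sum in the control libraries and 3.74% to 6.81% in the shFAM111B libraries. Without them the other 11 mRNAs held 11.2% to 11.7% of all TPM in control and 6.75% to 7.09% in shFAM111B libraries. The groups did not overlap in either sum, which was 2.67-fold lower for 13 mRNAs and 1.67-fold lower for 11 (exact two-sided permutation test, p = 0.1 for each, the smallest that 3 libraries against 3 allow). On the log2 scale the sum of 11 was lower by -0.74 with the TPM as deposited and by -0.28 after median-of-ratios scaling. In these bulk libraries fewer cells with an RNA and less of it per cell cannot be told apart.

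All 15 mRNAs and rRNAs passed the filter of at least 1 TPM in 3 libraries, and the 22 tRNAs did not. Of the 15, 9 were called lower (23.7% of all tested genes were) and 0 were called higher (6.82% of all tested genes were). At an adjusted p under 0.05 in limma, 13 of 15 were lower (50.9% of all tested genes) and 0 higher (21.1%), and at an unadjusted p under 0.05 these counts were the same 13 and 0. The same 13 had groups that did not overlap, which held for 52.8% of all tested genes in this direction. Their median log2 fold change was -1.13, against -0.36 for all tested genes. Under median-of-ratios and upper-quartile scaling 4 of the 15 stayed called lower, MT-ND2, MT-ND5, MT-ND4L and MT-ATP8. Of all 14394 tested genes, 1799 and 1910 were called lower under these 2 scalings, against 3409 with the TPM as deposited.

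**Figure D1:**
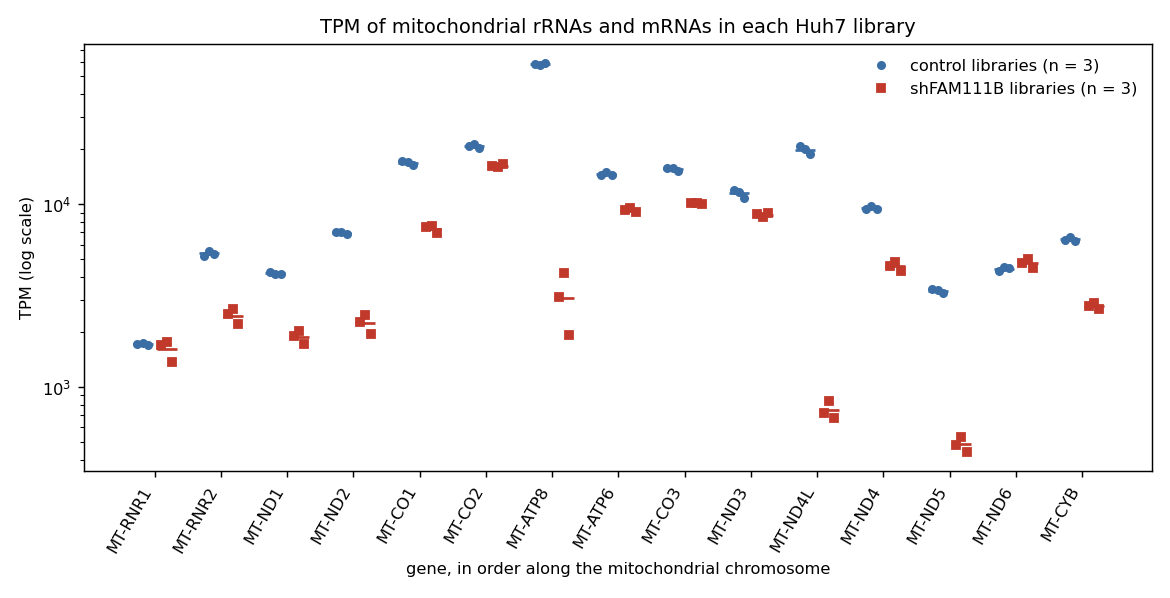
TPM on a log axis for the 15 tested mitochondrial genes in their order along the chromosome, with 3 control libraries as blue circles and 3 shFAM111B libraries as red squares and horizontal lines for the group means. MT-ATP8 goes from 58485 to 3083 mean TPM, whereas the points of MT-RNR1 and MT-ND6 overlap between the groups.

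Complex I, the NADH dehydrogenase that feeds electrons into the chain, has 7 mitochondrially encoded subunits. Of these 5 were called lower, as were 23.7% of all tested genes. Their median log2 fold change over all 7 was -1.16, and -1.11 without MT-ND4L. MT-ND5 had 3418, 3407 and 3270 TPM in control and 482, 536 and 441 TPM in shFAM111B libraries. Every shFAM111B library lay far below every control library, at a mean 6.92-fold lower. The log2 fold change was -2.79 (SE, the standard error, 0.0722, adjusted p = 1.58e-06, limma with Benjamini-Hochberg adjustment), and it lay between -3.06 and -2.34 under the 4 other scalings. MT-ND2 went from 7031, 7086 and 6859 TPM to 2275, 2485 and 1948 TPM, a log2 fold change of -1.65 (SE 0.0869, adjusted p = 6.61e-06, limma). Both are core subunits of the membrane arm, where protons are pumped.

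MT-ND1, which sits where quinone binds, and MT-ND4, another subunit of the membrane arm, fell by similar amounts. MT-ND1 had 4269, 4142 and 4172 TPM in control and 1904, 2016 and 1711 TPM in shFAM111B libraries, and its log2 fold change was -1.16 (SE 0.0644). MT-ND4 had 9429, 9713 and 9385 TPM in control and 4599, 4809 and 4296 TPM in shFAM111B libraries, with a log2 fold change of -1.06 (SE 0.0533). In each gene replicate 3 was the lowest shFAM111B library and replicate 2 the highest. Neither reached 2-fold after median-of-ratios scaling, where the values were -0.71 and -0.60.

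MT-ND3, a small subunit of 346 nt, had 11964, 11599 and 10853 TPM in control and 8851, 8467 and 8939 TPM in shFAM111B libraries. Its groups did not overlap, but the log2 fold change of -0.39 (SE 0.0532, adjusted p = 0.000465, limma) turned to 0.07 after median-of-ratios and 0.03 after upper-quartile scaling. Relative to the median tested gene it lay at -0.03. The shortest of the complex I genes, MT-ND4L, is described with its overlapping partner.

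MT-ND6 is the only mRNA on the minus strand and a further membrane subunit of complex I. It had 4315, 4506 and 4472 TPM in control and 4761, 4987 and 4483 TPM in shFAM111B libraries. The groups overlapped, and the log2 fold change of 0.10 (SE 0.0519, adjusted p = 0.131, limma) did not pass. It turned to -0.03 after rescaling to the nuclear protein-coding genes, but was 0.55 after median-of-ratios, 0.51 after upper-quartile and 0.12 after quantile scaling. The kit is labelled as stranded, but whether the counting used strand is not given in the sources used here, and without it reads of MT-ND6 and of heavy-strand RNA across the same bases cannot be told apart.

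MT-CYB, the cytochrome b of complex III, had 6394, 6591 and 6270 TPM in control and 2774, 2887 and 2660 TPM in shFAM111B libraries. It was 2.31-fold lower, a log2 fold change of -1.21 (SE 0.0474, adjusted p = 3.03e-06, limma) that lay between -1.34 and -0.76 under the other scalings.

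The 3 subunits of complex IV, cytochrome c oxidase, differed among themselves although all 3 genes lie on the heavy-strand transcript. MT-CO1, which holds the site where oxygen is reduced, had 17125, 17066 and 16448 TPM in control and 7482, 7601 and 6994 TPM in shFAM111B libraries. It was the only one of the 3 to be called, with a log2 fold change of -1.20 (SE 0.0501, adjusted p = 3.54e-06, limma). It did not reach 2-fold after median-of-ratios (-0.74), upper-quartile (-0.78) or quantile (-0.79) scaling. MT-CO2, which takes electrons from cytochrome c, had 20837, 21410 and 20222 TPM in control and 16240, 15900 and 16481 TPM in shFAM111B libraries. Its groups did not overlap, but its log2 fold change of -0.36 (SE 0.046) equals the shift of the median tested gene and turned to 0.09 after median-of-ratios scaling and 0.05 after upper-quartile scaling. MT-CO3, the third subunit of the core, had 15683, 15786 and 15135 TPM in control and 10136, 10179 and 10040 TPM in shFAM111B libraries. This was 1.54-fold lower, a log2 fold change of -0.62 (SE 0.0422, adjusted p = 1.68e-05, limma), between -0.74 and -0.10 under the other scalings.

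The ATP synthase, complex V, has MT-ATP6 and MT-ATP8, both in its membrane part. MT-ATP6, which lies at the proton channel, had 14513, 14981 and 14412 TPM in control and 9306, 9529 and 9077 TPM in shFAM111B libraries. It was 1.57-fold lower, a log2 fold change of -0.65 (SE 0.0441, adjusted p = 1.61e-05, limma), between -0.78 and -0.13 under the other scalings.

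MT-ATP8 stood apart from MT-ATP6 even though both are read from a single mRNA. It had 58656, 57911 and 58887 TPM in control replicates 1 to 3, the highest level of the 15 tested mitochondrial genes. In shFAM111B libraries it had 3093, 4227 and 1928 TPM. The log2 fold change was -4.32 (SE 0.254, adjusted p = 9.54e-06, limma), the least precise of the 15, and it was -4.02 without shFAM111B replicate 3 and -4.58 without replicate 2. Within a library, the TPM of MT-ATP8 was 4.04, 3.87 and 4.09 times that of MT-ATP6 in control and 0.332, 0.444 and 0.212 times in shFAM111B libraries. The ratio therefore crossed from above to below equality in every shFAM111B library.

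The second overlapping pair gave nearly the same picture. MT-ND4L had 20716, 19955 and 18731 TPM in control and 716, 843 and 676 TPM in shFAM111B libraries, a log2 fold change of -4.74 (SE 0.0871, adjusted p = 1.08e-06, limma). Its TPM was 2.20, 2.05 and 2.00 times that of MT-ND4 in control and 0.156, 0.175 and 0.157 times in shFAM111B libraries. The ratio fell 12.8-fold in this pair and 12.7-fold in the other (exact two-sided permutation test, p = 0.1 for each, adjusted p = 0.11 over 11 ratios). These ratios do not depend on the scaling of a library. MT-ATP8 and MT-ND4L, 207 and 297 nt long, are shorter than the 300 bp to which the labels say the cDNA was selected, and the part of gene length in their values was not tested.

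**Figure D2:**
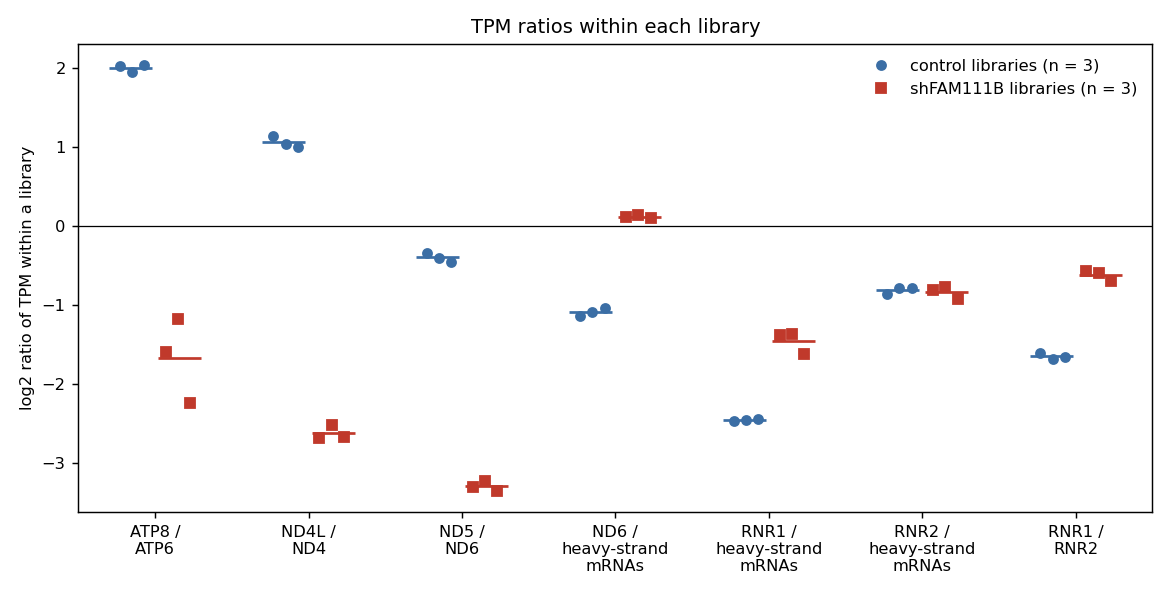
Log2 of TPM ratios within each library, for 3 control libraries (blue circles) and 3 shFAM111B libraries (red squares), with lines for the means. MT-ATP8 over MT-ATP6 and MT-ND4L over MT-ND4 cross 0 downwards, MT-ND6 over the 10 heavy-strand mRNAs crosses it upwards, and MT-RNR2 over those mRNAs overlaps between the groups.

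The mitochondrial rRNAs are the RNA of the small (MT-RNR1) and large (MT-RNR2) ribosomal subunits, and they are neighbours at the start of the heavy-strand transcript. MT-RNR1 (954 nt) had 1716, 1742 and 1691 TPM in control and 1694, 1761 and 1361 TPM in shFAM111B libraries. Its groups overlapped, and its log2 fold change of -0.11 (SE 0.0953, adjusted p = 0.352, limma) did not pass. It turned to 0.35 after median-of-ratios scaling, 0.31 after upper-quartile scaling and 0.01 without shFAM111B replicate 3. After quantile scaling it was -0.52, and after rescaling to the nuclear protein-coding genes -0.23. MT-RNR2 (1559 nt) had 5236, 5568 and 5333 TPM in control and 2511, 2657 and 2201 TPM in shFAM111B libraries. It was called lower, with a log2 fold change of -1.13 (SE 0.0739, adjusted p = 1.41e-05, limma), and was -0.68 after median-of-ratios scaling.

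Within libraries the rRNAs parted in the same way. The TPM of MT-RNR1 was 0.328, 0.313 and 0.317 times that of MT-RNR2 in control and 0.675, 0.663 and 0.618 times in shFAM111B libraries, a 2.04-fold higher ratio without overlap. MT-RNR2 stood at 0.551, 0.582 and 0.580 times the geometric mean of 10 heavy-strand mRNAs (MT-ATP8 and MT-ND4L left out) in control and at 0.571, 0.586 and 0.528 times in shFAM111B libraries. This log2 difference was -0.02 (-0.06 to 0.02 with single libraries left out, exact two-sided permutation test, p = 0.7). MT-RNR1 rose against the same mRNAs by 2.01-fold and MT-ND6 by 2.31-fold, each without overlap (exact two-sided permutation test, p = 0.1 for each). MT-ND6 went from 0.454, 0.471 and 0.486 times those mRNAs in control to 1.08, 1.10 and 1.08 times in shFAM111B libraries. Against its neighbour MT-ND6, MT-ND5 went from 0.759 to 0.102 times on average. The ratios of MT-RNR1 to MT-RNR2 and of MT-ND5 to MT-ND6 were chosen after their values were seen.

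The nuclear 5S ribosomal RNA, which lacks a poly(A) tail, differed between the groups. The 17 genes of 5S ribosomal RNA were listed at 0 TPM in controls, whereas their sum was 22970, 33059 and 1486 TPM with knockdown. Replicate 3 was the lowest shFAM111B library and replicate 2 the highest for MT-RNR1, MT-RNR2 and MT-ND6, as for 13 of the 15 tested mitochondrial genes, all but MT-CO2 and MT-ND3. Without replicate 3 the log2 fold change was 0.01 for MT-RNR1 and 0.14 for MT-ND6. The part of these RNAs in the values was not tested. The 22 tRNAs, of 59 to 75 nt, were listed at 0 TPM in every library of both groups, so they give no comparison of the strands.

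The order of levels along the chromosome changed with knockdown. In control libraries MT-ATP8 was highest, followed by MT-CO2 and MT-ND4L, whose libraries overlapped, and then by MT-CO1, MT-CO3, MT-ATP6, MT-ND3, MT-ND4, MT-ND2, MT-CYB, MT-RNR2, MT-ND6, MT-ND1, MT-ND5 and MT-RNR1, with no overlap between neighbours in that order. In shFAM111B libraries the order was MT-CO2, MT-CO3, MT-ATP6, MT-ND3, MT-CO1, MT-ND6, MT-ND4, MT-ATP8, MT-CYB, MT-RNR2, MT-ND2, MT-ND1, MT-RNR1, MT-ND4L and MT-ND5. There MT-ND6 did not separate from MT-ND4, MT-ATP8 from MT-CYB, MT-RNR2 from MT-ND2, MT-ND2 from MT-ND1, or MT-ND1 from MT-RNR1. MT-ATP8, at 1928 to 4227 TPM in these libraries, also overlapped MT-RNR2, MT-ND2 and MT-ND1 further down the order. MT-ATP8 and MT-ND4L are shorter than the 300 bp selection, and the part of gene length in their places in both orders was not tested.

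As shares of the 11 mRNAs without MT-ATP8 and MT-ND4L, which are free of the scaling of a library, 5 rose and 6 fell and none overlapped between the groups. A share rises when other shares fall, so these counts describe the mix and not each gene. In TPM, the groups did not overlap for 75.2% of all tested genes, both directions counted. MT-CO2 went from 18.2% ± 0.163 to 23.7% ± 0.834 (SD, n = 3), MT-ND6 from 3.88% ± 0.129 to 6.93% ± 0.251 and MT-ND3 from 10.0% ± 0.341 to 12.8% ± 0.566. MT-CO1 went from 14.8% ± 0.111 to 10.8% ± 0.283, MT-ND2 from 6.12% ± 0.0293 to 3.26% ± 0.340 and MT-ND5 from 2.95% ± 0.0235 to 0.710% ± 0.0576.

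The fold changes showed no simple course along the heavy-strand transcript. Across 10 heavy-strand mRNAs, Spearman's rho between the log2 fold change and the distance of the gene from the first base of MT-RNR1 was -0.10. These genes are cut from shared RNAs and are measured in the same libraries, so this is a description across genes and not a test. MT-ND2 and MT-CO1, early on the transcript, had -1.65 and -1.20, MT-CO2, MT-ATP6, MT-CO3 and MT-ND3 in the middle had -0.36, -0.65, -0.62 and -0.39, and MT-ND4, MT-ND5 and MT-CYB towards the end had -1.06, -2.79 and -1.21.

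**Figure D3:**
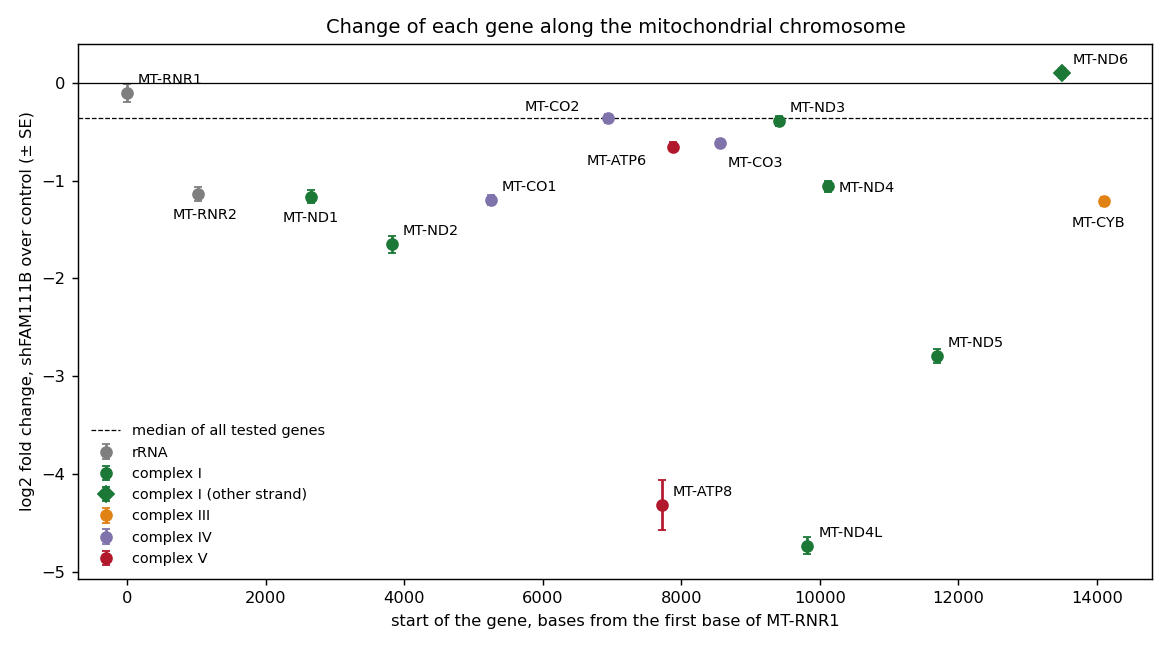
Log2 fold change (shFAM111B over control, on log2(TPM + 1), bars show the standard error) against the start of each gene in bases from the first base of MT-RNR1, with colours for rRNA and the respiratory complexes and a diamond for the minus-strand gene. The dashed line is the median of all tested genes at -0.36, and MT-CO2 and MT-ND3 lie on or near it between genes with larger falls.

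The length of the gene followed the fold change more closely. Across the same 10 heavy-strand mRNAs Spearman's rho with annotated length was -0.79, and across 13 genes, with MT-ND6 and both rRNAs added, it was -0.76. With MT-ATP8 and MT-ND4L, the shortest genes and those with the largest falls, it was -0.15 over 15 genes. The 5 genes from 346 to 784 nt in that set of 13 had log2 fold changes from -0.65 to 0.10, and those of 956 nt or more from -2.79 to -1.06. MT-RNR1, at 954 nt, lay with the shorter genes at -0.11.

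Nuclear genes of the same libraries moved with length as well. The longest annotated transcript was used for them. In the 71 tested nuclear protein-coding genes over 300 and up to 600 nt the median log2 fold change was 0.78, in 307 genes over 600 and up to 1000 nt it was 0.68, and in 1787 genes over 1000 and up to 2000 nt it was 0.17. From 2000 to 4000 nt it was -0.34 (4660 genes) and from 4000 to 8000 nt -0.79 (4184 genes). Only 2 tested nuclear protein-coding genes had no transcript over 300 nt, with a median of -0.82. The mitochondrial genes with lengths from 346 to 1812 nt lay below the median of their nuclear length class in each case. The part of transcript length in the values of single mitochondrial genes was not tested.

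**Figure D4:**
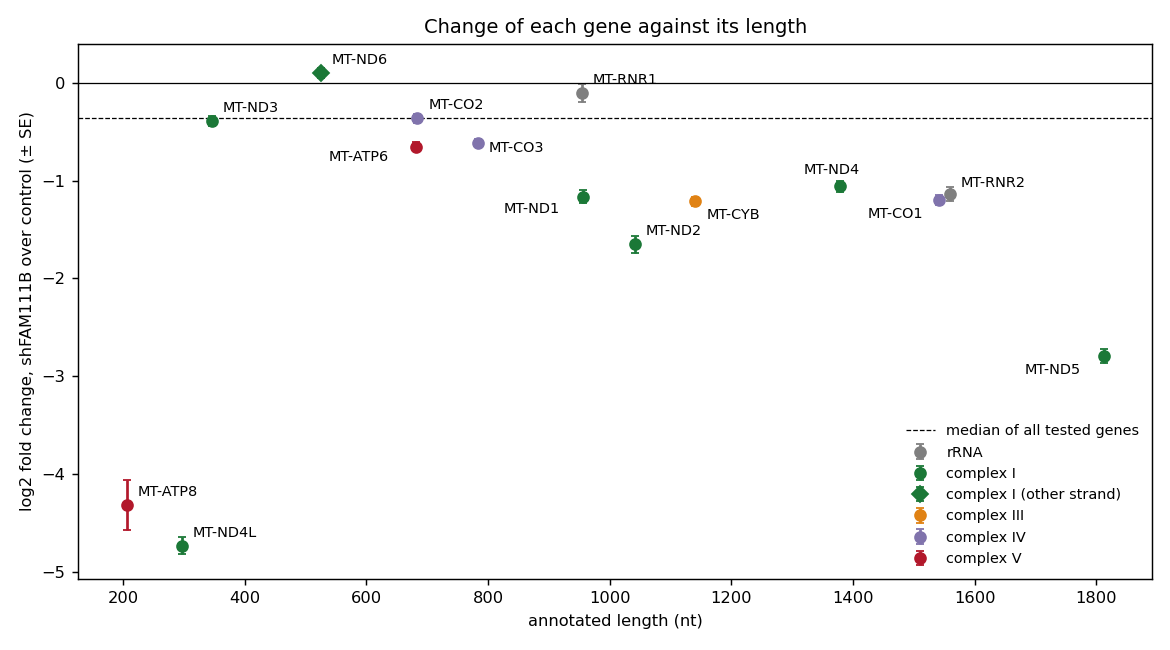
Log2 fold change (shFAM111B over control, on log2(TPM + 1), bars show the standard error) against annotated gene length in nt, with colours for rRNA and the respiratory complexes. From 346 nt (MT-ND3) to 1812 nt (MT-ND5) longer genes tend to have larger falls, and MT-ATP8 (207 nt) and MT-ND4L (297 nt) lie apart at -4.32 and -4.74.

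MT-ND6 stood apart from the other mRNAs in its share of G. This base made up 35.6% of the MT-ND6 RNA and between 6.28% and 16.2% of the other 12 mRNAs, which follows from the strand it lies on. The last codon is complete in 7 mRNAs and left with 1 or 2 bases in 6, where the poly(A) tail completes the stop. Of the 7 with a complete codon 4 were called lower, with log2 fold changes from -4.74 to 0.10, and of the 6 with an incomplete codon 4 were, from -1.65 to -0.39. Of all tested genes 23.7% were called lower. Without MT-ATP8 and MT-ND4L, 2 of 5 genes with a complete codon and 4 of 6 with an incomplete one were called lower. The medians were then -0.65 and -1.11. The range of the incomplete codons lies inside that of the complete ones.

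Among subunits of the same complexes that the nucleus encodes, more were called higher than lower. Of 37 nuclear complex I subunits 10 were called higher and 1 lower, with a median log2 fold change of 0.54. For complex III it was 3 higher and 0 lower of 9 (median 0.40), for complex IV 5 higher and 0 lower of 11 (median 0.92), and for complex V 4 higher and 0 lower of 15 (median 0.67). The background was 6.82% of all tested genes for higher calls and 23.7% for lower calls. In all tested nuclear protein-coding genes over 300 and up to 600 nt the median log2 fold change was 0.78. In those over 600 and up to 1000 nt it was 0.68. The part of transcript length in the counts and medians of the subunits was not tested. At an adjusted p under 0.05 in limma 27 were higher and 3 lower for complex I, 7 and 2 for complex III, 11 and 0 for complex IV and 12 and 1 for complex V, against 21.1% and 50.9% of all tested genes.

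The ratio of mitochondrially to nuclearly encoded subunits, as geometric mean TPM within a library, was lower in all shFAM111B libraries for each complex. For complex I (6 against 37 genes, MT-ND4L left out) it was 39.0, 38.8 and 37.9 in control and 11.8, 13 and 9.96 in shFAM111B libraries, which is 3.35-fold lower. The MT-CYB level was 43.5, 42.7 and 42.6 times that of the nuclear complex III subunits in control and 12.7, 13.6 and 11.1 times in shFAM111B libraries, 3.46-fold lower. For complex IV (3 against 11 genes) the ratio fell from 57.3, 56.4 and 53.9 to 15.8, 16.7 and 13.8, or 3.62-fold. MT-ATP6 against 15 nuclear complex V subunits went from 50.1, 50.3 and 49.3 to 20.3, 22.0 and 17.8, or 2.5-fold. No group overlapped with the other in any of these 4 ratios (exact two-sided permutation test, p = 0.1 for each, adjusted p = 0.11 over 11 ratios). Nuclear subunits are mostly short transcripts, and the trend with length above was not removed from these ratios.

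**Figure D5:**
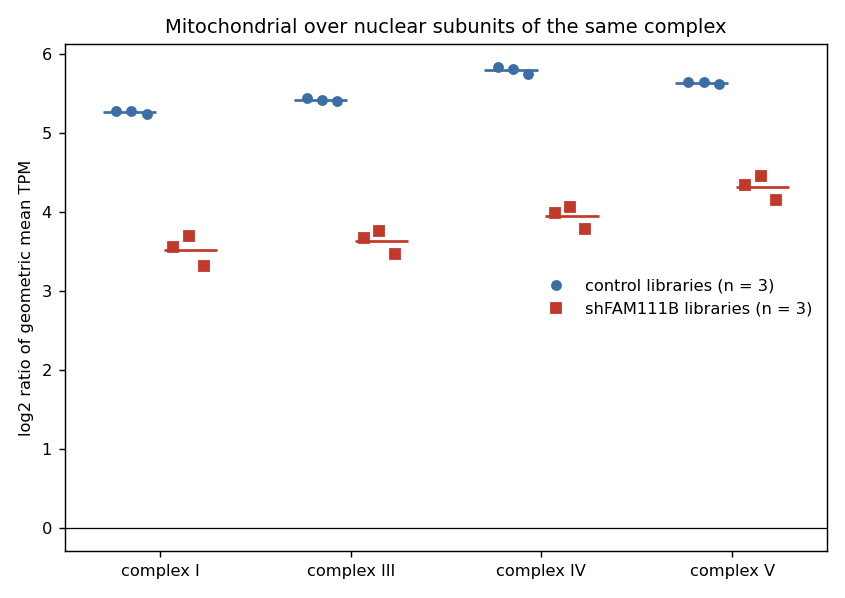
Log2 of the geometric mean TPM of mitochondrially over nuclearly encoded subunits within each library, by respiratory complex, with 3 control libraries as blue circles, 3 shFAM111B libraries as red squares and lines for the means. All control libraries lie above all shFAM111B libraries, and the mean log2 ratio fell by 1.74 for complex I, fell by 1.79 for complex III, fell by 1.86 for complex IV and fell by 1.32 for complex V.

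Nuclear copies of mitochondrial DNA share long stretches with these genes, so reads can be split between them. Of 7 copies listed from a single block of chromosome 1, 4 were tested, 2 called lower (23.7% of all tested genes) and 0 higher (6.82%). At an adjusted p under 0.05 in limma 2 were lower (50.9% of all tested genes) and 1 higher (21.1%). MTATP6P1 (chr1:633696-634376) matches MT-ATP6 over all 681 nt with 10 differences, and the longest stretch without a difference is 141 nt. The differences, with the MT-ATP6 base first and positions counted from 1 at its first base, are G19A, C129T, A151C, A175G, A192G, A334G, C417T, C534A, C549T and C642T. MTATP6P1 had 5039, 5268 and 5232 TPM in control and 947, 1085 and 835 TPM in shFAM111B libraries, a log2 fold change of -2.44 (SE 0.0915, adjusted p = 2.91e-06, limma). It stood at 35.4% of the MT-ATP6 level in control and 10.3% in shFAM111B libraries. Adding the copy to MT-ATP6 moved the log2 ratio of group means from -0.65 to -0.95.

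MTCO1P12, the copy of MT-CO1, fell by 1.56 on the log2 scale (SE 0.128), but its level was only 0.66% of that of MT-CO1 in control, and adding it left the log2 ratio at -1.20. MTND1P23 (chr1:629062-629433), which matches MT-ND1 over 352 nt with 3 differences, went the other way. It had 627, 696 and 548 TPM in control and 1066, 860 and 937 TPM in shFAM111B libraries, a log2 fold change of 0.61 (SE 0.108), short of the 2-fold limit. Added to MT-ND1 it moved that log2 ratio from -1.16 to -0.77. MTND2P28 stayed between 4.09 and 7.78 TPM in all libraries, with a log2 fold change of -0.26 that did not pass (adjusted p = 0.32, limma) and turned to as much as 0.24 under other scalings. How reads that match both a gene and its copy were assigned is not given in the sources used here beyond the name of RSEM, which shares such reads out by estimate.

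Of 9 nuclear genes for the transcription of mitochondrial DNA 1 was called higher and 2 lower, shares near those of all tested genes (6.82% called higher and 23.7% lower). TFAM, which packs mitochondrial DNA and opens its promoters, had 44.5, 39.1 and 37.1 TPM in control and 9.73, 9.39 and 8.77 TPM in shFAM111B libraries, a log2 fold change of -2.0 (SE 0.0878, adjusted p = 3.91e-06, limma). TFB2M, the factor that melts the promoter, had 44.3, 40.1 and 44.5 TPM in control and 12.3, 11.7 and 10.8 TPM in shFAM111B libraries, a log2 fold change of -1.80 (SE 0.0767). Both stayed called lower under each of the 4 other scalings. POLRMT, the mitochondrial RNA polymerase, rose from 68.0, 54.6 and 59.5 TPM to 134, 105 and 170 TPM, a log2 fold change of 1.13 (SE 0.172, adjusted p = 0.000782, limma). TFB1M, a methyltransferase of the small ribosomal RNA, had 0.13 and did not pass (adjusted p = 0.501, limma).

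Of 11 genes for processing of mitochondrial RNA 1 was called higher and 1 lower, and of 7 for its stability and decay 0 higher and 2 lower. Against 6.82% higher and 23.7% lower among all tested genes, these few calls do not set the lists apart. At an adjusted p under 0.05 in limma 4 processing genes were higher and 6 lower, and 2 and 4 of the stability and decay genes. Of all tested genes 21.1% were higher and 50.9% lower at that threshold. FASTKD1 had a log2 fold change of 1.29 and was called, while PRORP, the nuclease subunit of mitochondrial RNase P, had 0.82. FASTKD5, which is needed for mRNA ends that no tRNA marks, fell by 1.19 on the log2 scale, and FASTKD2 had -0.82. PNPT1, an exonuclease that degrades mitochondrial RNA, fell from 48.3, 34.7 and 32.0 TPM to 15.0, 15.3 and 15.6 TPM, and MTPAP, the poly(A) polymerase, from 16.1, 16.8 and 16.4 TPM to 6.48, 7.15 and 6.65 TPM. Their log2 fold changes were -1.25 (SE 0.147) and -1.17 (SE 0.0783). SLIRP, a partner of LRPPRC in protecting mRNAs, had 0.73, and SUPV3L1, the helicase that works with PNPT1, had 0.27, each short of 2-fold. The median was -0.47 for the 9 transcription genes, -0.34 for the processing genes and -0.35 for the stability and decay genes, close to the -0.36 of all tested genes. FASTKD5, PNPT1 and MTPAP did not reach 2-fold after median-of-ratios scaling.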

How the data were processed

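The authors deposited 1 table of TPM for 6 Huh7 libraries, with their group means and their own comparison (fold change, its log2 and p-values), which was not used. Per the labels, poly(A) RNA was made into stranded libraries, and the processing notes name RSEM, DESeq2 and hg38, whereas the study's methods name a TruSeq kit. TPM keep no depth, so no count test, interval or floor is given, and precision rests on 3 libraries a group. The 14394 genes that reached 1 TPM in 3 libraries or more were tested on log2(TPM + 1) with limma 3.58.1 (R 4.3.3, lmFit and eBayes with a trend, no covariates), which understates changes of low genes. Ratios within libraries were compared by exact permutation (scipy 1.17.1, Python 3.11.15). Biopython 1.88 aligned nuclear copies with GENCODE v29 transcripts, in which 58420 of 60666 listed genes matched by identifier. Positions and lengths come from the same release. The scripts were tested on simulated data. All mitochondrial genes are named or counted, nuclear subunits are counted only, and of the lists of nuclear copies and of mitochondrial RNA machinery the 2 highest and 2 lowest tested fold changes are named. The members and lists were chosen with earlier results of these data known. Alternatives were no filter, a pseudocount of 0.1, the replicate block, 4 scalings, left-out libraries, TPM times length, sums in place of geometric means and, chosen after seeing the data, nuclear copies added. Under 1% of tested genes had identical TPM in any pair of libraries.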

Additional observations from a re-analysis of the deposited data

How the results depend on the processing

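The 9 mitochondrial genes called lower remained 9 in number without a filter, with a pseudocount of 0.1, with the replicate number as a block (9) and with single libraries omitted (9 to 9), and 0 were called higher under any setting. They were 4 after median-of-ratios scaling and 4 after upper-quartile scaling, 8 after quantile normalization, where MT-CO1 was no longer called, and 13 were lower at an adjusted p under 0.05. The log2 fold change reversed for MT-RNR1 after median-of-ratios (0.35) and upper-quartile (0.31) scaling and without shFAM111B replicate 3 (-0.18 to 0.0095 over left-out libraries), for MT-CO2 (0.094 and 0.053) and MT-ND3 (0.066 and 0.025) after the same scalings, and for MT-ND6 (-0.029) after rescaling to nuclear protein-coding genes. The cause was not tested. The log2 ratio of MT-RNR2 to the heavy-strand mRNAs ran from -0.055 to 0.019 with libraries left out and reversed without shFAM111B replicate 3. The sum of 13 mRNAs kept its direction, at -0.96 to -1.54 on the log2 scale under 3 scalings and -1.11 for TPM times length. Without MT-ATP8 and MT-ND4L it was -0.28 (median-of-ratios), -0.32 (upper quartile), -0.87 (nuclear protein-coding genes) and -0.91 (TPM times length). Over all tested genes 981 were called higher and 3409 lower with the TPM as deposited, against 2031 and 1799, 1899 and 1910, and 1694 and 1849 after median-of-ratios, upper-quartile and quantile scaling. Same-numbered libraries correlated in their deviations from the group means by 0.054, 0.0349 and 0.0908, and differently numbered ones by -0.0763 to 0.0442. These small values cannot settle whether the replicate numbers pair the libraries. The block changed no call of a mitochondrial gene. Depth is unknown and limits what a value of 0 TPM says. Without a filter limma reports that most genes have no spread, so its p-values there are unreliable.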

Other observations

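Among 394 listed nuclear copies of mitochondrial mRNAs, 11 reached 1 TPM in a library and 4 reached 100 TPM. A copy outside the chromosome 1 block was among these 4, MTND6P4, and it was chosen after its values were seen. MTND6P4 (chr5:134924123-134924644) matches MT-ND6 over 522 nt with 26 differences and a longest shared stretch of 91 nt. It had 944, 1030 and 785 TPM in control and 1654, 1493 and 1806 TPM in shFAM111B libraries, a log2 fold change of 0.85 (SE 0.112, adjusted p = 0.000392, limma), between 0.41 and 1.30 under the 4 other scalings. Its level was 20.8% of that of MT-ND6 in control and 35.0% in shFAM111B libraries. Added to MT-ND6 it moved the log2 ratio of group means from 0.10 to 0.26.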
